A study of Mus musculus with 10 samples.

Results

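The subject is the use of T cell receptor (TCR) alpha V and J segments by T cells from mouse colorectal carcinoma. The members are every TRAV and every TRAJ named in a productive alpha chain (TRA) contig of the 5 TCR libraries, which gave 112 segments, 70 TRAV and 42 TRAJ, of 188 annotated at the locus (128 TRAV and 60 TRAJ). The combination group, treated with S. chamaejasme (Stellera chamaejasme, a plant) plus anti-PD-1, an antibody that blocks a checkpoint receptor of T cells, had 2 libraries. The S. chamaejasme group, treated without the antibody, had 1 library, and the untreated group had 2. Every TCR library had a single-cell RNA library with the same title number, and all were from colorectal carcinoma. The labels name no mouse strain, age, tumour model or dose, no batch, and do not say whether replicates are separate animals. The p-values therefore cover only counting error and the spread between these libraries, which may be technical. The titles of the untreated libraries are styled differently from the others, so treatment and any difference in handling between these libraries cannot be told apart. No group received the antibody alone.

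A TCR alpha chain is made in the thymus when one V segment is cut and joined to one J segment. The V segments lie upstream of the J segments on the same chromosome, and a cell may join again, each time with a V further upstream and a J further downstream, until a chain is selected. The join and the bases added or trimmed there form the CDR3, the loop that contacts the peptide held by an MHC molecule. CD8 T cells are selected on MHC class I and CD4 T cells on class II. A few innate-like T cells share one nearly fixed alpha chain. In mice these are TRAV11 with TRAJ18 in invariant NKT cells, which see lipids on CD1d, and TRAV1 with TRAJ33 in MAIT cells, which see vitamin B metabolites on MR1.

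In the GENCODE M21 annotation of GRCm38, the TRAV genes occupy chr14:52427928-53977678 and the TRAJ genes chr14:54155005-54218842, both on the plus strand, so that the lowest coordinate is the 5′ end. In this annotation many TRAV segments have near-identical copies marked D and N. Whether these mice carry all of the copies was not tested. Of the 70 TRAV found, none was annotated as a pseudogene, and joining the copies left 47. The counted unit is the clone, a distinct TRAV, TRAJ and CDR3 nucleotide sequence within a library, so that an expanded clone counts once. The libraries held 4362 and 4158 clones (combination), 3335 (S. chamaejasme) and 1256 and 2529 (untreated), from 1459 to 4196 cells. The matched RNA libraries held 8763821 to 27759543 UMIs. Cd3e, a subunit of the receptor complex, had a UMI in 94.4% to 98.1% of the cells with an alpha chain, and the B cell gene Ms4a1 in at most 0.04%. Epcam, an epithelial gene, had a UMI in 1.3% to 3.6% of them. Pairs of libraries shared 7 to 28 barcodes and no cell with both the same barcode and the same chain. Of 15053 distinct chains, 483 were found in 2 or more libraries, and 9 of these also had an identical beta chain in 2 libraries.

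The sequences below are the ones the invariant chains and the segments that differed between CD4 and CD8 cells turn on. The germline J segments are from GENCODE M21. TRAJ18 lies at chr14:54200777-54200842, TRAJ33 at chr14:54185358-54185414, TRAJ26 at chr14:54194490-54194549, TRAJ7 at chr14:54211470-54211528, TRAJ27 at chr14:54192303-54192361 and TRAJ57 at chr14:54158505-54158569, each a coding J segment on the plus strand.
TRAJ18: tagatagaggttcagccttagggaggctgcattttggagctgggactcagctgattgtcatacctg
TRAJ33: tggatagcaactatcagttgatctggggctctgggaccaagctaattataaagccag
TRAJ26: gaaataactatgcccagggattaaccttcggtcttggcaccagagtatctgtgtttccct
TRAJ7: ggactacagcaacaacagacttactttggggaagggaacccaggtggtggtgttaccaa
TRAJ27: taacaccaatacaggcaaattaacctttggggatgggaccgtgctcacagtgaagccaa
TRAJ57: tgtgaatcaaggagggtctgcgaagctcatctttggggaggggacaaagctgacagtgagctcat

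The CDR3 sequences of the 3 most frequent TRAV11 with TRAJ18 chains and of the most frequent TRAV1 with TRAJ33 chain follow, from the deposited contigs. Capitals mark bases that match neither the germline V nor the germline J.
TRAV11 with TRAJ18, 18 cells: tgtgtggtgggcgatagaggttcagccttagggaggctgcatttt
TRAV11 with TRAJ18, 13 cells: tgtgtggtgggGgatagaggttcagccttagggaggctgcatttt
TRAV11 with TRAJ18, 11 cells: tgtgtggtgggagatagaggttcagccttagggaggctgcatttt
TRAV1 with TRAJ33, 4 cells: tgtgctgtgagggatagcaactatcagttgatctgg

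Use was spread over many segments, and no single V or J dominated. TRAV6-6 was used most, with 6.37% and 5.60% of clones in the combination libraries, 5.58% in the S. chamaejasme library and 4.22% and 5.22% in the untreated libraries. TRAV9-1 averaged 4.46% ± 0.450 of clones and TRAV6N-7 4.35% ± 0.657 (SD, n = 5 libraries). TRAV16N, TRAV3-3, TRAV5D-4, TRAV9-4, TRAV8D-1, TRAV12D-2 and TRAV12-3 completed the 10 most used, with means between 2.89% and 3.79%. These are the names the contigs give, and for TRAV6N-7, TRAV5D-4 and TRAV12D-2 RNA mostly named another copy, as given below. Among J segments TRAJ49 led with 5.61% ± 0.260 of clones (SD, n = 5), ahead of TRAJ52 at 4.52% ± 0.647. TRAJ50, TRAJ31, TRAJ40, TRAJ56, TRAJ45, TRAJ32, TRAJ48 and TRAJ57 followed with means from 3.6004% to 4.01%, and neighbours among these 8 lay within each other's SD. At the low end, 10 TRAV and 1 TRAJ, TRAJ23, had fewer than 10 clones over all libraries and were not tested.

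**Figure D1:**
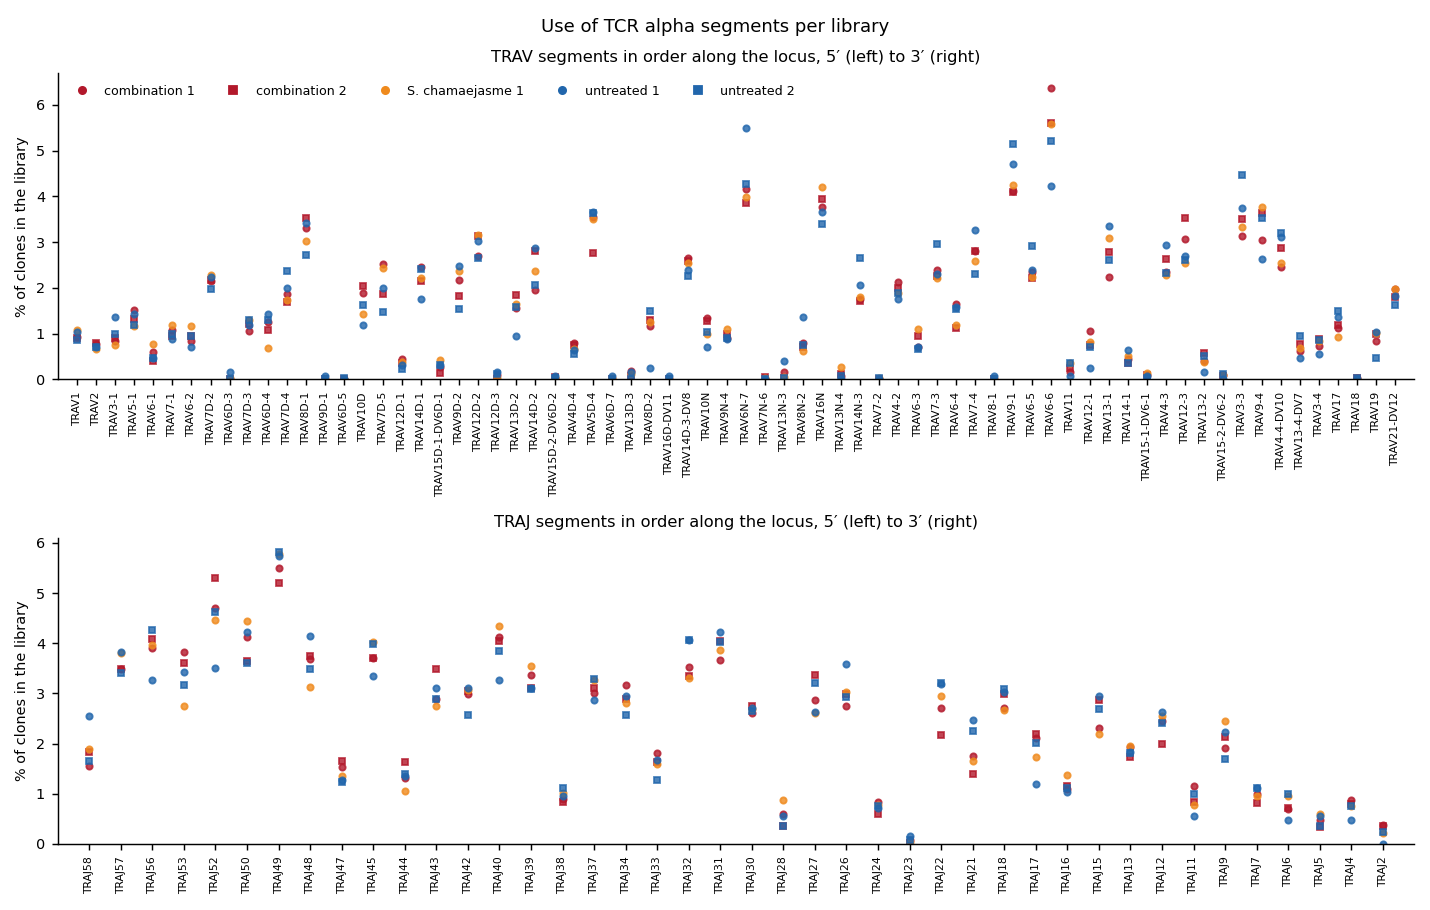
Percent of clones using each TRAV (top) and TRAJ (bottom) in each of the 5 libraries, with segments in locus order from 5′ to 3′. Points of the 3 groups lie over each other for most segments, TRAV6-6 and TRAJ49 stand highest, and J use declines toward the 3′ end.

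Between treatments no TRAV and no TRAJ passed the test. With edgeR's quasi-likelihood test and Benjamini-Hochberg adjustment, 0 of 60 TRAV and 0 of 41 TRAJ passed an adjusted p of 0.05 (0% called) in the combination against untreated, in S. chamaejasme against untreated and in the combination against S. chamaejasme. At an unadjusted p under 0.05 the counts in that order were 1, 2 and 1 for TRAV and 2, 1 and 1 for TRAJ. DESeq2 called 0 in all 6. The 3 comparisons share libraries with each other.

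The lowest p among J segments for the combination against untreated was that of TRAJ21. It had 1.74% and 1.39% of clones in the combination libraries, 1.65% in the S. chamaejasme library and 2.47% and 2.25% in the untreated libraries. Both treated groups lay below both untreated libraries, but the log2 difference for the combination, -0.56 ± 0.18 (SE), had an adjusted p of 0.208 in edgeR. TRAJ22 had 2.71% and 2.17% of clones in combination libraries against 3.18% and 3.20% in untreated ones, a log2 difference of -0.39 with an edgeR adjusted p of 0.413. TRAV14N-3 had 1.77% and 1.71% in combination libraries and 2.07% and 2.65% in untreated ones, with a log2 difference of -0.50 and an edgeR adjusted p of 0.654. TRAV6D-4 was lower in the lone S. chamaejasme library, 0.690% of clones, than in the combination libraries (1.26% and 1.08%) and the untreated libraries (1.43% and 1.31%). Its log2 difference was -0.96 against untreated (edgeR adjusted p = 0.355) and 0.76 for the combination against S. chamaejasme (edgeR adjusted p = 0.920). TRAJ53 had 3.83% and 3.61% in combination libraries and 2.76% in the S. chamaejasme library, with an edgeR adjusted p of 0.389.

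None of the segments with the widest fitted differences passed. TRAV13D-3, for example, had an SE of 1.51 and TRAV12D-3 one of 1.67 for the combination against untreated. For the combination against untreated the 5 highest log2 values were those of TRAV13D-3, TRAV13N-4, TRAV15-1-DV6-1, TRAV12-1 and TRAV12D-1 (0.59 to 1.23) and of TRAJ2, TRAJ47, TRAJ4, TRAJ17 and TRAJ33 (0.30 to 1.18). The lowest, besides TRAV14N-3, TRAJ21 and TRAJ22, were TRAV12D-3, TRAV13N-3, TRAV15D-1-DV6D-1 and TRAV11 (-1.42 to -0.40) and TRAJ7, TRAJ38 and TRAJ32 (-0.29 to -0.24). For S. chamaejasme against untreated the extremes were TRAV13N-4 at 2.27 and TRAV12D-3 at -2.002, and TRAJ28 at 1.03 and TRAJ21 at -0.49. The others among its 5 highest were TRAV15-1-DV6-1, TRAV13D-3, TRAV6-1, TRAV6-3, TRAJ5, TRAJ2, TRAJ9 and TRAJ16, and among its 5 lowest TRAV13N-3, TRAV6D-4, TRAV17, TRAV8N-2, TRAJ44, TRAJ15, TRAJ32 and TRAJ48. For the combination against S. chamaejasme TRAV6D-4, TRAV13N-3, TRAV12D-3, TRAV10D, TRAV10N, TRAJ2, TRAJ44, TRAJ53, TRAJ11 and TRAJ17 were highest (0.30 to 0.78). TRAV13N-4, TRAV15D-1-DV6D-1, TRAV11, TRAV15-1-DV6-1, TRAV6-1, TRAJ28, TRAJ5, TRAJ6, TRAJ16 and TRAJ9 were lowest there (-1.48 to -0.28).

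Counted by cells instead of clones, expanded clones moved some shares. TRAV14D-2 was carried by 2.57% and 3.37% of cells in the combination libraries, 6.003% in the S. chamaejasme library and 4.66% and 3.44% in the untreated libraries. By clones its share in the S. chamaejasme library was 2.37%, inside the range of the other libraries. The 2 largest clones of that library, of 54 and 51 cells, both used TRAV14D-2 and held 23.4% and 22.1% of the 231 cells with that V. Over cells, TRAV14D-2 (log2 -1.02, adjusted p = 0.00775), TRAJ45 (-0.42, adjusted p = 0.0234) and TRAJ53 (0.80, adjusted p = 0.00401) passed edgeR's test for the combination against S. chamaejasme, a test in which cells of one clone count separately. Clones of 10 or more cells numbered 1 in each combination library, 18 in the S. chamaejasme library and 4 and 3 in the untreated libraries. Without untreated replicate 2, TRAV8D-2 passed edgeR's test in the combination (log2 2.35, adjusted p = 0.0166) and S. chamaejasme (2.38, adjusted p = 0.0288) against the 1 untreated library left, which is assumed to vary like the others. It had 1.17% and 1.30% of clones in the combination libraries, 1.26% in the S. chamaejasme library and 0.239% and 1.503% in the untreated libraries. The value of 0.239% is that of the untreated library left, which had the fewest clones, 1256.

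CD8-gated and CD4-gated cells differed in the share of clones using several V segments. A cell was CD8-gated with at least 1 UMI of Cd8a or Cd8b1 and none of Cd4, and CD4-gated with at least 1 UMI of Cd4 and none of the other pair. The gates held 3114 cells with 2756 clones and 5624 cells with 5829 clones, and 40 clones were in both gates. Another 6952 cells had no coreceptor UMI and 305 had both. Median RNA depth ran from 3882 to 5750 UMIs a cell in the CD8 gate and 3726 to 5278 in the CD4 gate, higher in the CD8 gate of each library. Foxp3, the transcription factor of regulatory T cells, had a UMI in 0.64% to 1.90% of CD8-gated and 4.28% to 10.03% of CD4-gated cells, and its part in the differences was not tested. With the library as a block, 8 of 56 TRAV tested (14.3%) passed edgeR's test, 3 higher (5.36%) and 5 lower (8.93%) in CD8-gated clones. The median log2 difference over all 56 was -0.07.

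TRAV16N, at chr14:53351028-53351621, differed with the smallest p. It was used by 7.80% and 8.72% (combination), 7.23% (S. chamaejasme) and 9.34% and 7.66% (untreated) of CD8-gated clones, against 2.39% and 2.30%, 2.57%, and 1.96% and 2.29% of CD4-gated clones, with libraries in the same order. The gates did not overlap, and the log2 difference was 1.77 ± 0.16 (SE; edgeR adjusted p = 3.34e-22), higher in 5 of 5 libraries. TRAV2, the second V from the 5′ end, was used by 1.93% ± 0.627 of CD8-gated and 0.435% ± 0.172 of CD4-gated clones (SD, n = 5 libraries), which rest on 56 and 27 clones. Its log2 difference was 2.12 ± 0.38 (SE; edgeR adjusted p = 1.58e-06), higher in 5 of 5 libraries. TRAV6-6 was used by 8.11% ± 1.29 of CD8-gated and 5.09% ± 1.30 of CD4-gated clones, a log2 difference of 0.63 ± 0.11 (SE; edgeR adjusted p = 1.68e-05).

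The V segments lower in CD8-gated clones came from the TRAV4, TRAV9 and TRAV14 families. TRAV4-4-DV10, whose DV name marks a segment that can also join in delta chains, was used by 1.32% ± 0.384 of CD8-gated and 3.38% ± 0.547 of CD4-gated clones (SD, n = 5), with a log2 difference of -1.35 ± 0.29 (SE; edgeR adjusted p = 6.24e-05). TRAV14D-3-DV8 was used by 1.11% ± 0.445 and 2.86% ± 0.413 of them, in that order of gates, and its log2 difference was -1.40 (edgeR adjusted p = 0.000144). TRAV14N-3 differed by -1.51 (adjusted p = 0.000740), TRAV4-2 by -1.13 (adjusted p = 0.00559) and TRAV9-1 by -0.76 (adjusted p = 0.000474). All 5 were lower in 5 of 5 libraries, though the ranges of TRAV14N-3 and TRAV9-1 overlapped between the gates. In all, 7 of 56 TRAV (12.5%) had gates that did not overlap, the other one being TRAV3-1 at a log2 difference of 0.89 with an adjusted p of 0.105. TRAV13N-3 and TRAV8N-2 also stood among the highest values and TRAV4D-4 among the lowest, without passing.

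As a family, TRAV4 was used by 4.82% ± 0.857 of CD8-gated and 9.08% ± 0.949 of CD4-gated clones and was lower in 5 of 5 libraries. All 4 of its members had negative log2 differences, with a median of -1.04, and 2 passed. The TRAV9 family was used by 9.74% ± 1.16 of CD8-gated and 11.6% ± 0.575 of CD4-gated clones, lower in 5 of 5 libraries, and 1 of 4 tested members passed, with 2 negative. The TRAV14 family was used by 7.16% ± 2.45 of CD8-gated and 9.80% ± 0.352 of CD4-gated clones. It was lower in 4 of 5 libraries, with 10.9% of CD8-gated and 9.80% of CD4-gated clones in untreated replicate 1. All 5 of its members had negative differences, with a median of -0.29, and 2 passed, TRAV14D-3-DV8 and TRAV14N-3. Of the others, TRAV14D-1 (-0.045) and TRAV14D-2 (-0.063) lay near the median over all 56 TRAV, -0.07. TRAV14-1 was at -0.29 ± 0.65 (SE). TRAV3, which has 3 members, was used by 6.99% ± 0.817 of CD8-gated and 4.85% ± 0.452 of CD4-gated clones, higher in 5 of 5 libraries, with no member past the test. Among the other families TRAV10 was also lower in 5 of 5 libraries, and TRAV2, TRAV6 and TRAV16 were higher in 5 of 5. No test was run on the family sums.

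The copies of a V were named differently by the contigs and by RNA. Of 15491 pairings of a cell's contig V with RNA UMIs of the same segment or a copy, 74.6% had their top RNA gene under the contig's own name. For TRAV16N that share was 94.7%, and TRAV14D-3-DV8 matched in all 456 such cells. For TRAV14N-3 it was 3.22%, and in 331 of 342 such cells the top RNA gene was TRAV14D-3-DV8. For TRAV4D-4 the share was 0%, with TRAV4-4-DV10 the top RNA gene in all 119 cells. Which of these copies a chain used is uncertain. With D and N copies joined, TRAV14-3 differed by -1.46 (edgeR adjusted p = 1.54e-09). The names went with different J segments. Among TRAV14D-3-DV8 clones 72.5% had a J from the 20 most 5′ annotated TRAJ, and among TRAV14N-3 clones 29.2% did. TRAV6-6 matched its own name in 80.3% of the 254 cells, of 948 with that contig, that had such RNA. The match was 0.15% of 673 cells for TRAV6N-7, 0.66% of 454 for TRAV5D-4, 16.7% of 156 for TRAV12D-2 and 0.18% of 558 for TRAV14D-2. Their top RNA genes were TRAV6-7-DV9, TRAV5-4, TRAV12N-2 and TRAV14-2, in that order. For TRAV9-1, TRAV3-3, TRAV9-4, TRAV8D-1 and TRAV12-3 the match was 81.4% to 100%.

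J segments also differed between the gates, by smaller amounts. Of 41 TRAJ, 10 passed edgeR's test (24.4%), 5 higher (12.2%) and 5 lower (12.2%) in CD8-gated clones. TRAJ26 was used by 4.60% and 4.95% (combination), 4.20% (S. chamaejasme) and 5.45% and 3.83% (untreated) of CD8-gated clones, against 1.90% and 2.53%, 2.38%, and 3.19% and 3.31% of CD4-gated clones. No CD8-gated value was as low as a CD4-gated one, and the log2 difference was 0.87 ± 0.20 (SE; edgeR adjusted p = 0.000721). TRAJ49 was used by 7.73% ± 1.19 of CD8-gated and 5.08% ± 0.647 of CD4-gated clones (SD, n = 5), with a log2 difference of 0.53 and an edgeR adjusted p of 0.00173. TRAJ7 (log2 0.79), TRAJ22 (0.72) and TRAJ30 (0.67) were higher in CD8-gated clones as well, in 5 of 5 libraries each, with adjusted p of 0.0411, 0.00555 and 0.0147.

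TRAJ27 was used by 1.83% ± 0.377 of CD8-gated and 3.23% ± 0.726 of CD4-gated clones, a log2 difference of -0.87 ± 0.24 (SE; edgeR adjusted p = 0.00408). TRAJ57 was used by 2.68% ± 0.714 and 4.25% ± 0.503, again CD8-gated then CD4-gated, a difference of -0.72 (edgeR adjusted p = 0.00408). TRAJ43 (-0.65), TRAJ52 (-0.50) and TRAJ40 (-0.50) were lower with adjusted p of 0.0180, 0.0147 and 0.0411, TRAJ43 in 4 of 5 libraries and TRAJ40 in 3 of 5. TRAJ26, TRAJ49, TRAJ7, TRAJ27 and TRAJ57 had gates that did not overlap, 5 of 41 segments (12.2%). TRAJ2, TRAJ9 and TRAJ5 stood among the extremes without passing.

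The number of J calls varied more across alternatives. With at least 2 coreceptor UMIs for a gate, 1 of 41 TRAJ passed, TRAJ26, while 9 TRAV did, and with cells in place of clones 4 TRAJ and 7 TRAV passed. The J count was 6 without the S. chamaejasme library, 4 without combination replicate 2 and 3 without untreated replicate 2, against 7 to 9 TRAV when any library was left out. TRAJ26 passed under every alternative run. TRAJ7 did not pass in 8 of 14 alternatives, among them those that left out any one library. TRAJ40 and TRAJ43 did not pass in 7 of 14 each, and the other J segments past the main test failed in 1 to 5. DESeq2 with its default fit called 2 TRAV, TRAV2 and TRAV4-4-DV10, and 10 TRAJ.

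**Figure D2:**
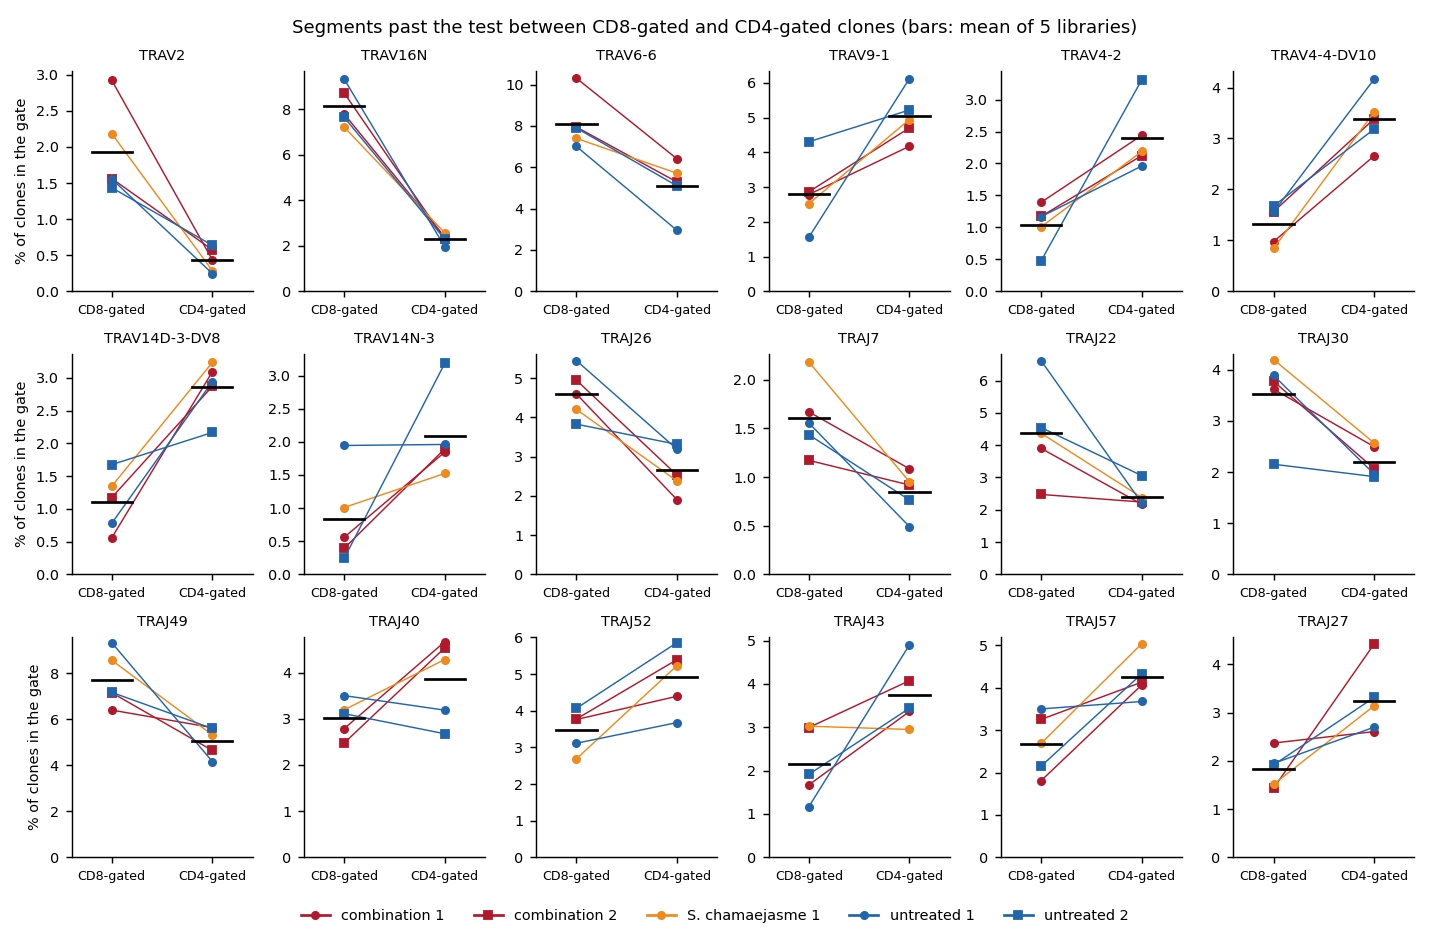
Percent of clones using each of the 18 segments past the test, in CD8-gated (left) and CD4-gated (right) clones. Lines join the gates of one library and black bars are means of 5 libraries; TRAV16N and TRAJ26 lie higher in CD8-gated clones and TRAV4-4-DV10 and TRAJ27 lower, with no overlap.

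V and J segments were not paired evenly along the locus. The annotated TRAJ were divided in 5′ to 3′ order into blocks of 20, named 5′, middle and 3′, and the TRAV into blocks of 43, 43 and 42. The most 5′ V segments, which are farthest from the J segments, were seldom joined to a J of the 5′ block. Such a J was used by 7.38% of 149 TRAV1 clones, 7.76% of 116 TRAV2 clones and 8.05% of 87 TRAV6-1 clones. At the 3′ end of the V segments it was used by 83.2% of 137 TRAV19 clones, 80.1% of 291 TRAV21-DV12 clones and 72.8% of 184 TRAV17 clones. Between them the share did not climb steadily. It was 74.5% for TRAV8D-2 and 72.5% for TRAV14D-3-DV8, then 34.4% for TRAV10N and 19.2% for TRAV9N-4, which the annotation places 3′ of both. These positions are those of GRCm38 under the contig's V name, and the order in these mice was not tested. Of 181 TRAV9N-4 cells, 52 had RNA of that segment or a copy, and 69.2% of these matched the name. For TRAV10N the match was 98.9% of 186 such cells.

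Summed over V blocks, a J of the 5′ block was used by 48.0% ± 0.899 of clones with a V from the 3′ block and 38.8% ± 1.89 of clones with a V from the 5′ block (SD, n = 5 libraries). The difference of 9.12 percentage points was positive in 5 of 5 libraries, and the exact two-sided sign-flip permutation p was 0.0625, the smallest that 5 libraries can give. A J from the 3′ block showed the opposite order, at 17.96% ± 1.34 and 23.5% ± 1.84 of those clones. Across clones within a library the Spearman coefficient between V rank and J rank, both counted from the 5′ end, was -0.15 and -0.14 (combination), -0.15 (S. chamaejasme) and -0.19 and -0.19 (untreated). These are descriptions over clones that share a library. In non-productive contigs, which encode no working chain, the coefficient lay between -0.17 and -0.12. Without D and N copies it lay between -0.36 and -0.31, and with the V named from RNA between -0.25 and -0.20.

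The Spearman coefficient was nearer 0 in both combination libraries than in both untreated ones, with a difference of 0.047 and an exact permutation p of 0.333, the smallest that 2 against 2 allows. The 5′ J block held 43.8% ± 0.870 of combination clones and 42.5% ± 0.539 of untreated clones (SD, n = 2 each), and the values of the groups did not overlap. The middle J block held 35.6% ± 0.537 and 36.5% ± 0.146 of them, combination then untreated, also without overlap. Both gave an exact permutation p of 0.333, the smallest possible, so neither test could pass 0.05. Between the gates the 5′ J block held 42.0% ± 1.43 of CD8-gated and 44.4% ± 0.644 of CD4-gated clones. Its share was lower in CD8-gated clones in 5 of 5 libraries (exact sign-flip permutation p = 0.0625). Over cells this difference had the other sign, 0.299 percentage points. The middle J block had 37.9% ± 1.54 of CD8-gated and 34.8% ± 1.19 of CD4-gated clones (exact sign-flip permutation p = 0.0625, higher in 5 of 5). Of its 14 tested segments, 3 passed as higher in CD8-gated clones (TRAJ22, TRAJ26 and TRAJ30) and 2 as lower (TRAJ27 and TRAJ40). The Spearman coefficient differed by -0.0051 between the gates (exact sign-flip permutation p = 0.812).

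**Figure D3:**
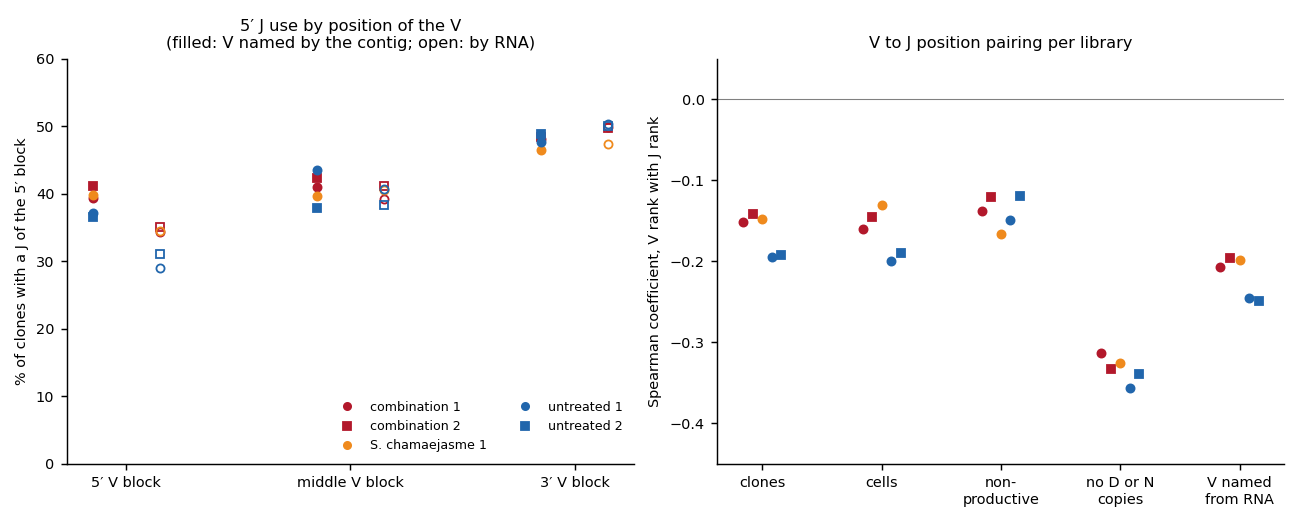
Left, percent of clones with a J of the 5′ block for V segments of each block, per library, with the V named by the contig (filled) or by RNA (open). Right, Spearman coefficient of V rank with J rank per library under 5 ways of counting; every value is below 0, and the 3′ V block lies above the 5′ V block in all 5 libraries.

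Cells with 2 productive alpha chains, 1797 in all, showed the J positions of both chains together. Within a library the Spearman coefficient between the J ranks of the pair of chains was 0.56 to 0.62 and that between their V ranks 0.0012 to 0.099, a description over cells of one library. Without cells holding at least 2 productive beta chains the J coefficient was 0.59 to 0.67.

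The TRAV11 with TRAJ18 chain was carried by 50 cells. There were 8 and 14 in the combination libraries, 22 in the S. chamaejasme library and 0 and 6 in the untreated libraries, which is 0.191%, 0.349%, 0.572%, 0% and 0.235% of cells with an alpha chain. The S. chamaejasme library was highest, with an exact 95% binomial interval of 0.359% to 0.864%, and the interval of the untreated library with 0 of 1459 cells ended at 0.253%. The limit that a count of 0 allows there, taken as 3 counts, is 0.206%. Intervals and limits cover counting error only. The combination exceeded untreated by 0.153 percentage points, with overlapping values and an exact permutation p of 0.667. The pair was found in 19 clones, against 1.11 that the product of the shares of TRAV11 (39 clones) and TRAJ18 (447 clones) gives. TRAV11D with TRAJ18 was found in 0 cells. The CDR3 was 45 bases long in 49 of the 50 cells. The 3 commonest versions, printed above, had 0 or 1 base outside the germline segments and were each found in 4 libraries.

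RNA of these cells, which the choice of members did not use, held Zbtb16, the transcription factor PLZF of innate-like T cells. Its level was 328 and 399 CPM in cells with the pair from the combination libraries, 95.7 CPM in those from the S. chamaejasme library and 349 CPM in those from untreated replicate 2. In the other cells with an alpha chain it was 0.823 and 1.52, 1.53 and 1.06 CPM in the same libraries. Every library with the pair was higher, and the exact sign-flip permutation p was 0.125, the smallest 4 libraries can give. A Zbtb16 UMI was found in 47.9% of 48 cells with the pair and 0.458% of the others, with median depths of 4548 and 4459 UMIs a cell. Summed over libraries, the chemokine Xcl1 had 668 CPM in cells with the pair and 41.5 CPM in the others. The chemokine receptor Cxcr6 had 449 and 57.4 CPM, and the IL-15 receptor subunit Il2rb 364 and 115 CPM, in that order. Il2rb was not higher in every library, with 87.2 CPM in cells with the pair and 130.5 CPM in the others of untreated replicate 2. Genes of naive and recirculating T cells ran the other way, with Ccr7 at 81.3 and 913 CPM and S1pr1 at 30.0 and 235 CPM. Klrb1c, an NK receptor, had 1 UMI in all cells with the pair, and Foxp3 and Trdc had 0. Of the 50 cells, 9 were CD4-gated, 2 CD8-gated and 37 in neither gate. Among the 48 with a productive beta chain, 16 had a V named TRBV12-2+TRBV13-2 and 3 TRBV13-2, while 10 had TRBV1, 7 TRBV13-1 and 7 TRBV29.

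TRAV1 with TRAJ33 was rarer. The combination libraries held 2 and 5 cells with it, the S. chamaejasme library 3, and the untreated libraries 0 and 1, or 11 in all (0.0685%). The combination exceeded untreated by 0.0667 percentage points (exact permutation p = 0.333, the smallest possible). The 9 clones compare with 2.41 from the product of shares. Zbtb16 had 5 UMIs in these 11 cells, all in combination replicate 2 and the S. chamaejasme library, and 97.0 CPM in sum against 1.24 CPM in other cells. That test had an exact sign-flip permutation p of 0.5 over 4 libraries. Il17a, the cytokine of type 17 cells, had 815 against 168 CPM, but 41 of its 42 UMIs came from combination replicate 2.

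**Figure D4:**
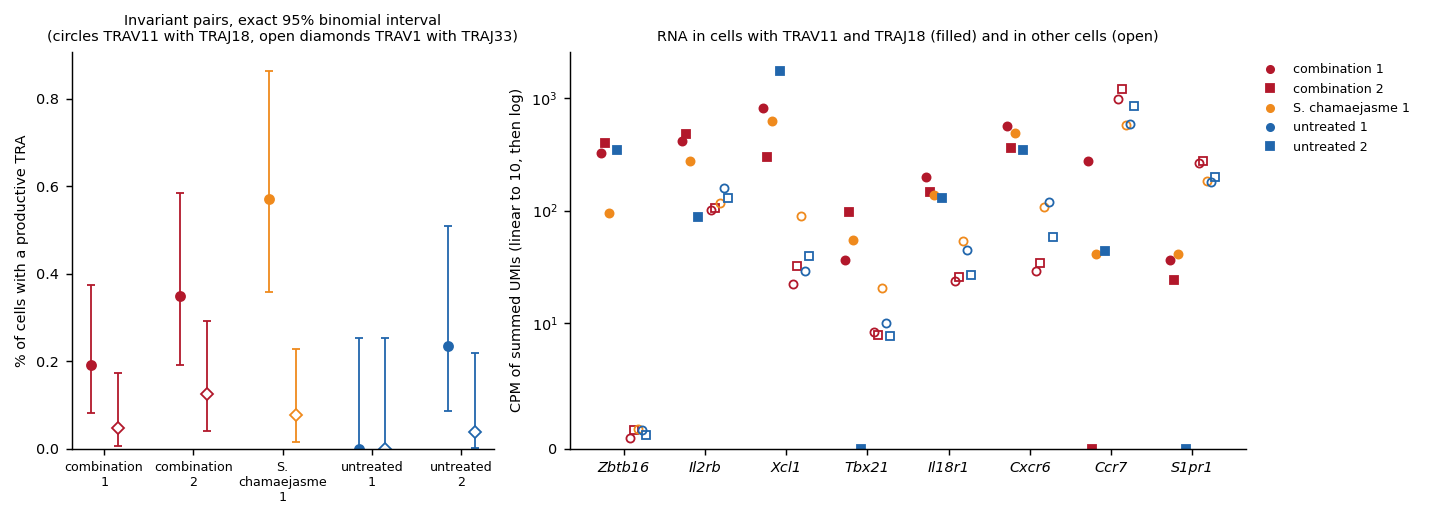
Left, percent of cells with an invariant pair in each library, with the exact 95% binomial interval. Right, CPM of 8 genes in cells with TRAV11 and TRAJ18 (filled) and in the other cells with an alpha chain (open) of each library; Zbtb16, Xcl1 and Cxcr6 are higher and Ccr7 and S1pr1 lower in cells with the pair in each of the 4 libraries that have it.

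No difference in CDR3 length between the gates was detected. It averaged 40.85 bases ± 0.152 in CD8-gated and 40.85 ± 0.0854 in CD4-gated clones (SD, n = 5), higher in 2 of 5 libraries (exact sign-flip permutation p = 1). The CDR3 bases that match neither germline segment averaged 3.57 ± 0.127 in CD8-gated and 3.72 ± 0.200 in CD4-gated clones (exact sign-flip permutation p = 0.312). These junction counts leave out 4 J segments whose CDR3 bases differed from GRCm38 in nearly all clones, 5 bases in all. Counted from the 3′ end of the CDR3 and with the GRCm38 base first, they were A24G in TRAJ32 (100% of 557 clones), A15G in TRAJ34 (99.6% of 454), G15A and C16T in TRAJ37 (99.8% of 488) and A23G in TRAJ45 (98.8% of 593). All 5 libraries carried them.

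Chains shared between libraries had short junctions. Those found in 2 or more libraries had a mean of 1.82 junction bases and 44.0% had none (418 chains), against 3.83 bases and 10.96% for chains found in 1 library (12091 chains). A single chain was found in all 5 libraries. It joined TRAV7-3 to TRAJ53 with no base outside the germline segments, in 6 cells with 6 different beta chains, and is printed for that reason.
TRAV7-3 with TRAJ53: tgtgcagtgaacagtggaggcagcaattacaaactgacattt

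**Figure D5:**
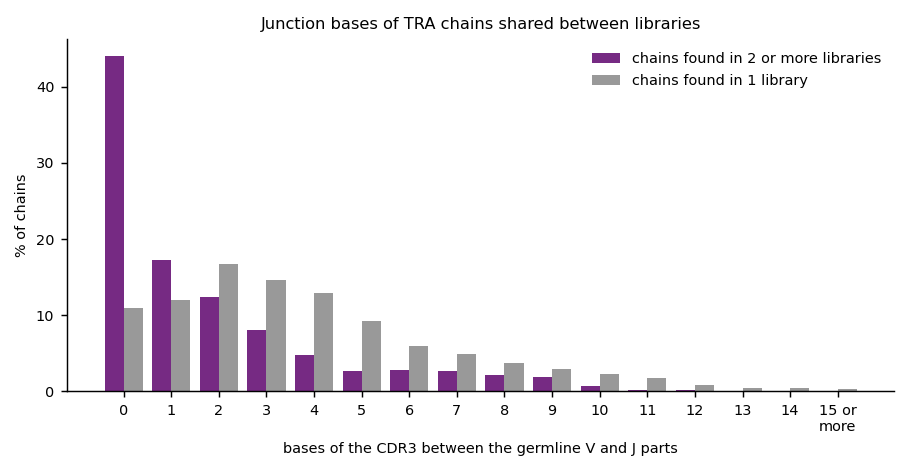
Percent of TRA chains by the number of CDR3 bases between the germline V and J parts, for chains found in 2 or more libraries (left bar of each pair) and in 1 library (right bar). The bar at 0 reaches 44.0% for shared chains and 10.96% for the others.

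TRAJ23 and TRAJ2 were more frequent among non-productive chains than among productive clones, described here with no test. TRAJ23 had 157 of the non-productive chains (2.87%) and 9 of the productive clones (0.0575%). TRAJ2 had 0.876% of non-productive chains and 0.281% of productive clones. TRAJ49 and TRAJ52 had 4.51% and 3.74% of non-productive chains and 5.55% and 4.70% of productive clones.

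The contig names were set beside RNA UMIs of the same gene. Between 66.2% and 69.2% of contigs had at least 1 such UMI in the same cell, while 0.961% to 1.21% of the other cells and segments did. Among the 48 TRAV with at least 100 cells the median was 99.5%, and the lowest was 0.0%.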

How the data were processed

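5′ single-cell RNA and TCR libraries were made on the Chromium platform, per the labels' protocols. Cell Ranger 3.1.0 and STAR on mm10 are named in the submitters' processing notes. The deposited RNA matrices hold raw UMI counts, and the deposited contig lists hold counts of reads and UMIs per contig. Gates used RNA cells that passed a minimum of 300 genes and a maximum of 10% mitochondrial UMIs. Segments with at least 10 clones entered edgeR 4.0.16 (glmQLFit, two-sided, Benjamini-Hochberg over all TRAV or all TRAJ tested), with the number of clones as library size. The edgeR spread of each segment was drawn toward that of all segments. SE is the size of the log2 fold divided by the root of edgeR's F statistic. Estimated per segment by DESeq2, the dispersion had a median of 1e-08, a value that leaves counting error alone. The edgeR p-values and SE therefore hold the counting error of clones as well as any spread between libraries. DESeq2 1.42.0, cells, TMM, no filter, joined copies, stricter gates, contig depth, cells with 2 TRB chains and left-out libraries were alternatives. CPM are each gene's share of the UMIs summed over cells, on the CPM scale. On simulated counts with 4 segments changed by log2 1, edgeR recovered 2 of 4 TRAV and 4 of 4 TRAJ between groups and 4 of 4 TRAV and 3 of 4 TRAJ between gates, with 1 false call for TRAJ between groups. The changed segments were drawn from those with many clones, and another 4 in the same data were changed by log2 2. The simulated spread was the same for every segment. Recovery for segments with few clones was not tested. Doublets were handled by an alternative without cells holding at least 2 productive TRB chains. Segments named are those past the test, the 5 highest and lowest by fold in each comparison, the 10 most used, the invariant pairs and the TRAV4, TRAV9 and TRAV14 families. Segments named for another value (TRAV6-1, TRAV17, TRAV19, TRAV21-DV12, TRAV8D-2, TRAV14D-2, TRAJ23, the TRAV2, TRAV3, TRAV6, TRAV10 and TRAV16 families) were chosen after values were seen. Members and lists were chosen with earlier results of these data known. R 4.3.3, Python 3.11.15, pandas 2.3.3, numpy 2.4.6 and scipy 1.17.1 were used.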

Additional observations from a re-analysis of the deposited data

Results flagged for a closer look

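In a group of 5 libraries a value was picked out when its gap to the nearest other value exceeded 0.71 of the range, which chance does in about 1 of 20 groups; 36 groups (18 segments in 2 gates) were looked at. In CD8-gated clones TRAV6-6 was at 10.3% in combination replicate 1 and 7.004% to 7.94% in the others, and TRAJ30 was at 2.15% in untreated replicate 2 and 3.62% to 4.20% in the others. In CD4-gated clones TRAV14N-3 was at 3.19% in untreated replicate 2 and 1.52% to 1.96% in the others, and TRAJ22 was at 3.06% there and 2.17% to 2.38% in the others. Untreated replicate 2 was the library picked out in 3 of these 4.

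For TRAJ40 the gates stood in opposite order in the combination and the untreated libraries. Its share of CD8-gated minus CD4-gated clones averaged -1.97 percentage points in the combination libraries, negative in both. The difference was positive in both untreated libraries, with 3.502% and 3.11% of CD8-gated against 3.19% and 2.68% of CD4-gated clones. These untreated shares rest on few clones, 9 and 13 CD8-gated and 13 and 21 CD4-gated. The S. chamaejasme library had 3.19% of CD8-gated and 4.28% of CD4-gated clones, the same order of gates as the combination. The difference between treatments was not tested.

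Non-productive contigs used 2 J segments that no productive contig had. TRAJ35 had 284 non-productive chains and TRAJ25 had 7.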

How the results depend on the processing

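No paired analysis was possible because the labels carry no number shared between treatment groups, and the replicate numbers used here only follow the order of deposit. The gates, which share a library, had the library as a block, and with no library block 10 TRAV and 12 TRAJ passed. Between treatments the counts of 0 moved to 1 TRAV for the combination against untreated and for S. chamaejasme against untreated without untreated replicate 2 (range 0 to 1 over left-out libraries), and with cells in place of clones to 1 TRAV and 2 TRAJ for the combination against S. chamaejasme. Within CD8-gated or CD4-gated cells alone no segment passed between treatments. Between the gates DESeq2 with its default fit called 2 TRAV, and 10 with dispersions per segment, and the TRAV count over left-out libraries ranged from 7 to 9. The TRAJ count was 1 with at least 2 coreceptor UMIs, 4 with cells in place of clones and 3 to 9 over left-out libraries. The mean V to J Spearman coefficient of -0.166 became -0.138 in non-productive contigs, -0.130 with the number in the TRAV name as the order, -0.334 without D and N copies and -0.219 with the V named from RNA, and stayed between -0.172 and -0.158 over left-out libraries. The 5′ J block difference between the gates reversed to 0.299 points with cells in place of clones, and the CDR3 length difference of 0.00221 bases reversed to -0.0955 with cells, to -0.0423 with at least 2 coreceptor UMIs and ranged from -0.0757 to 0.0628 over left-out libraries. The cause of these changes was not tested. The alternatives of CD8-gated cells only, dispersions per segment, V named from RNA, no D or N copies and alpha chain pairs without cells of 2 TRB chains were chosen after seeing the data. The untreated libraries, with 1256 and 2529 clones, are the shallowest and limit the treatment comparisons, and the tests between 2 and 2 libraries cannot go below an exact permutation p of 0.333.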
